A study of Mus musculus with 5 samples.

Results

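The genes described here are 8 CC chemokines (Ccl2, Ccl3, Ccl6, Ccl7, Ccl8, Ccl9, Ccl12 and Ccl22) and the chemokine receptor gene Ccr1, taken as every probe set whose platform annotation gives one of these symbols. Each of the 9 genes had 1 probe set, of 8251 genes with a symbol of their own on a mouse oligonucleotide array. They were chosen with their intensities in these arrays known, mainly for the height of several of them with the deltaNFAT virus, so the values are given as a description. The 5 co-cultures were Fos-/- spleen cells infected with a deltaNFAT virus, Fos-/- spleen cells infected with a virus for green fluorescent protein (GFP), Fos-/- spleen cells without virus, Fos+/+ bone marrow cells and Fos+/+ spleen cells, with 1 array each. All 5 were grown for 6 days with dexamethasone and active vitamin D on the stromal line ST2-T, conditions in which osteoclasts form. Each dish was harvested whole, so an array reads haematopoietic and stromal RNA together, and fewer cells of a type cannot be told apart from less RNA per cell. The labels describe the deltaNFAT construct no further and give no virus dose.

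CC chemokines are small secreted proteins with a pair of neighbouring cysteines near their amino end, and they guide leukocytes through receptors coupled to G proteins. Ccl2, Ccl7, Ccl8 and Ccl12 form the monocyte chemoattractant group, and several of them draw monocytes through the receptor Ccr2. Ccl3, Ccl6 and Ccl9 belong to the macrophage inflammatory protein group and act on Ccr1, a receptor found on monocytes, neutrophils and osteoclast precursors. Osteoclasts themselves are known to make Ccl9, and Ccl22, a product of macrophages and dendritic cells, attracts T cells through Ccr4.

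Intensities are on the linear scale the authors deposited. Their trimmed means were nearly the same in every array, and each array held between 20.3 and 22.4% of values that were not above 0. A floor of 19.8, the 40th percentile of all values, was set under ratios, and a gene was called at 2-fold when the brighter array reached 39.6. With 1 array per group no test, error or p-value can be given, and a fold against an array at or under the floor is a lower bound. On its brighter probe set Fos itself read 581 for deltaNFAT, 607 for GFP and 426 for uninfected Fos-/- spleen, against 614 in Fos+/+ bone marrow and 848.6 in Fos+/+ spleen. The stromal cells carry their own Fos, and the position of this probe set relative to the deletion is unknown here, so it does not check the labels.

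The monocyte chemoattractant genes read highest with deltaNFAT. Ccl2, the classical monocyte attractant, read 693 with deltaNFAT, 193 with GFP, 70.1 in uninfected Fos-/- spleen, 38.0 in Fos+/+ bone marrow and 51.3 in Fos+/+ spleen. Both virus arrays stood above all 3 arrays without virus, which lay within 2-fold of each other. Over GFP, the Ccl2 reading with deltaNFAT was 3.59-fold higher, and over no virus 9.88-fold. Ccl7, a second attractant of monocytes, read 360 with deltaNFAT, 82.9 with GFP and 31.1 without virus, against 14.2 in Fos+/+ bone marrow and 15.3 in Fos+/+ spleen. The order of the Fos-/- arrays was that of Ccl2, and both Fos+/+ arrays were under the floor. Its folds were 4.35 over GFP and 11.6 over no virus.

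Ccl8 and Ccl12 also had their highest reading there. Ccl8 read 171 with deltaNFAT, 55.2 with GFP and -22.1 without virus, against -5.80 in Fos+/+ bone marrow and 30.8 in Fos+/+ spleen. With deltaNFAT it was 3.10-fold over GFP and at least 8.63-fold higher than without virus, while GFP and Fos+/+ spleen lay within 2-fold of each other. Ccl12 read 165 with deltaNFAT, 11.6 with GFP, -18.4 in uninfected Fos-/- spleen, -68.5 in Fos+/+ bone marrow and -28.9 in Fos+/+ spleen. Only the deltaNFAT array was above the floor, so the other 4 have no order, and the fold over GFP and over no virus was at least 8.33.

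Ccl3 and the receptor gene followed the same contrast between the viruses. Ccl3 read 71.2 with deltaNFAT, 22.0 with GFP and 34.9 without virus, against -6.90 in Fos+/+ bone marrow and 6.10 in Fos+/+ spleen. With deltaNFAT it was 3.24-fold over GFP and 2.04-fold over no virus. Ccr1, which binds Ccl3, Ccl6 and Ccl9, read 81.2 with deltaNFAT, 19.0 with GFP, 18.8 in uninfected Fos-/- spleen, -4.60 in Fos+/+ bone marrow and 2.80 in Fos+/+ spleen. It was at least 4.10-fold higher with deltaNFAT than with either GFP or no virus. Its paralogue Ccr1l1, which has a probe set of its own, read -17.5 with deltaNFAT and 26.3 with GFP. Only GFP was above the floor for Ccr1l1, which was too dim to be called.

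**Figure D1:**
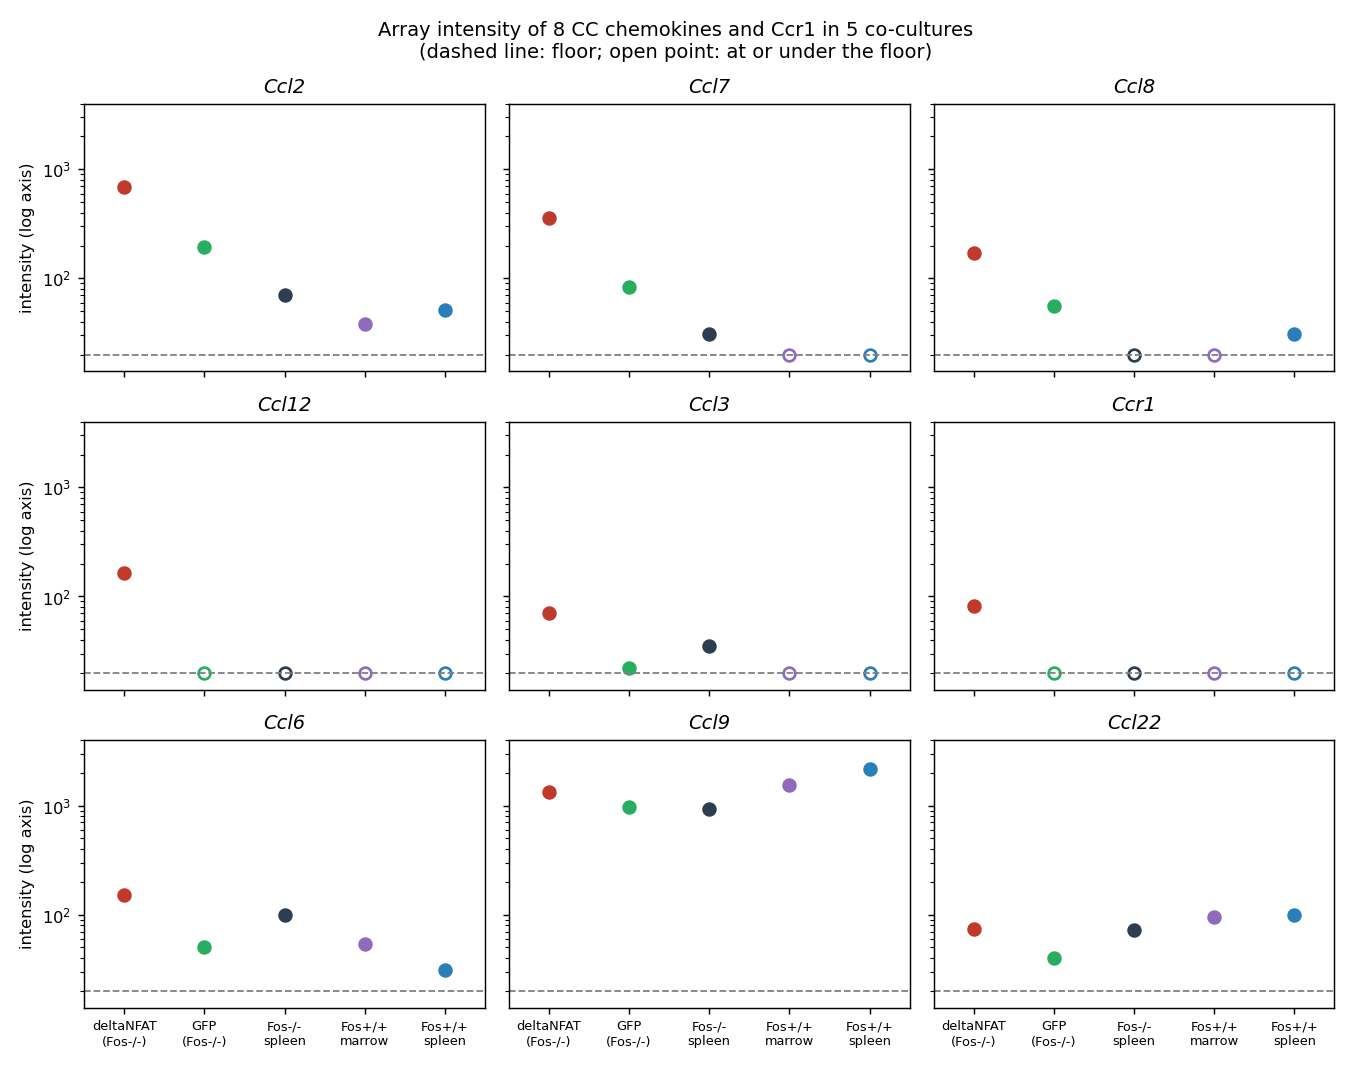
Intensity (log axis) of each of the 9 genes in the 5 arrays, 1 point per array, with points at or under the floor of 19.8 drawn open on the dashed line. Ccl2, Ccl7, Ccl8, Ccl12, Ccl3, Ccr1 and Ccl6 read highest with deltaNFAT, while Ccl9 (2171) and Ccl22 (98.4) read highest in Fos+/+ spleen.

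Ccl6 and Ccl9, neighbouring genes whose proteins share the receptor Ccr1, differed from each other. Ccl6 read 150 with deltaNFAT, 50.2 with GFP and 98.9 in uninfected Fos-/- spleen, against 54.3 in Fos+/+ bone marrow and 31.1 in Fos+/+ spleen. It was thus 2.99-fold higher with deltaNFAT than with GFP, like the monocyte attractants, but 1.52-fold over no virus, which did not reach 2-fold. The GFP array read below the array without virus for Ccl6, at a ratio of 0.51, also short of 2-fold. Between spleen cultures without virus, Ccl6 was 3.18-fold higher in Fos-/- than in Fos+/+.

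Ccl9 ran the other way with genotype. It read 1343 with deltaNFAT, 967 with GFP and 927 without virus in Fos-/- spleen, against 1554 in Fos+/+ bone marrow and 2171 in Fos+/+ spleen. All 3 Fos-/- arrays lay below both Fos+/+ arrays, and each array was within 2-fold of its neighbour in the order. Only 1 called pair resulted: Ccl9 was lower in Fos-/- than in Fos+/+ spleen, at a log2 ratio of -1.23. With deltaNFAT it was 1.39-fold over GFP and 1.45-fold over no virus, and reached 61.8% of the Fos+/+ spleen reading, where GFP reached 44.5% and no virus 42.7%. Ccl22 read 73.2 with deltaNFAT, 40.1 with GFP and 72.7 without virus, against 95.7 in Fos+/+ bone marrow and 98.4 in Fos+/+ spleen. Its deltaNFAT and no-virus arrays differed by 1.01-fold, the GFP array was the lowest, and no pair compared here reached 2-fold.

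Counted by comparison, deltaNFAT over GFP gave 7 of the 9 genes at least 2-fold higher and 0 lower, beside 3.52% higher and 2.66% lower of the 5033 genes bright enough to be called (177 and 134 genes). This contrast chose the genes, so nothing is read from that difference. All 9 were bright enough, Ccl3, Ccl12 and Ccr1 through the deltaNFAT array alone, and Ccl12 and Ccr1, under the floor with GFP, had to pass. Ccl6 at 2.99-fold was the smallest call and Ccl22 at 1.83-fold the largest ratio not called. The median log2 ratio was 1.69 for the 9 genes and -0.0030 for all bright genes. Ccl2 and Ccl7 alone kept their call at a noise floor of 96.6 (the mean size of the arrays' 1st percentiles), and Ccl3 and Ccr1 were lost at a floor of 65.1 as well.

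Against Fos-/- spleen without virus, deltaNFAT gave 6 genes higher and 0 lower, with Ccl6, Ccl9 and Ccl22 not called, beside 11.0% higher and 6.66% lower among 5178 bright genes. The deltaNFAT readings that chose the genes enter this count too, so nothing is read from it. Ccl3, Ccl7, Ccl8, Ccl12 and Ccr1 were bright enough through the deltaNFAT array alone. Of these, Ccl8, Ccl12 and Ccr1 were under the floor without virus and had to pass. GFP virus over Fos-/- spleen without virus gave 3 higher and 0 lower of 6 bright enough, beside 10.3% and 7.00% of 5114 genes. These 3 were Ccl2 at 2.75-fold, Ccl7 at 2.67-fold and Ccl8 at no less than 2.79-fold. Ccl7 and Ccl8 were bright enough through the GFP array alone, and Ccl8, under the floor without virus, had to pass. The genes were chosen with these values known, so nothing is read from this count either. Ccl12 and Ccr1 were at or under the floor in both arrays of that pair. The median log2 ratio of the 9 genes for deltaNFAT over no virus was at least 2.04, the lower bound of Ccr1, and over all bright genes it was -0.09. For GFP over no virus the median fell on Ccl12 and Ccr1, which have no ratio in that pair, and over all bright genes it was -0.11. The 3 virus comparisons share arrays with one another, so these values are set side by side and not compared further. A call at the noise floor of 96.6 needs 193.2 in the brighter array. There 2 genes were higher for deltaNFAT over no virus and 0 for GFP over no virus, beside 7.88% and 7.73% of bright genes. Ccl2, Ccl7 and Ccl9 alone were bright enough with deltaNFAT, and Ccl9 alone with GFP, where Ccl2 missed at 192.9.

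**Figure D2:**
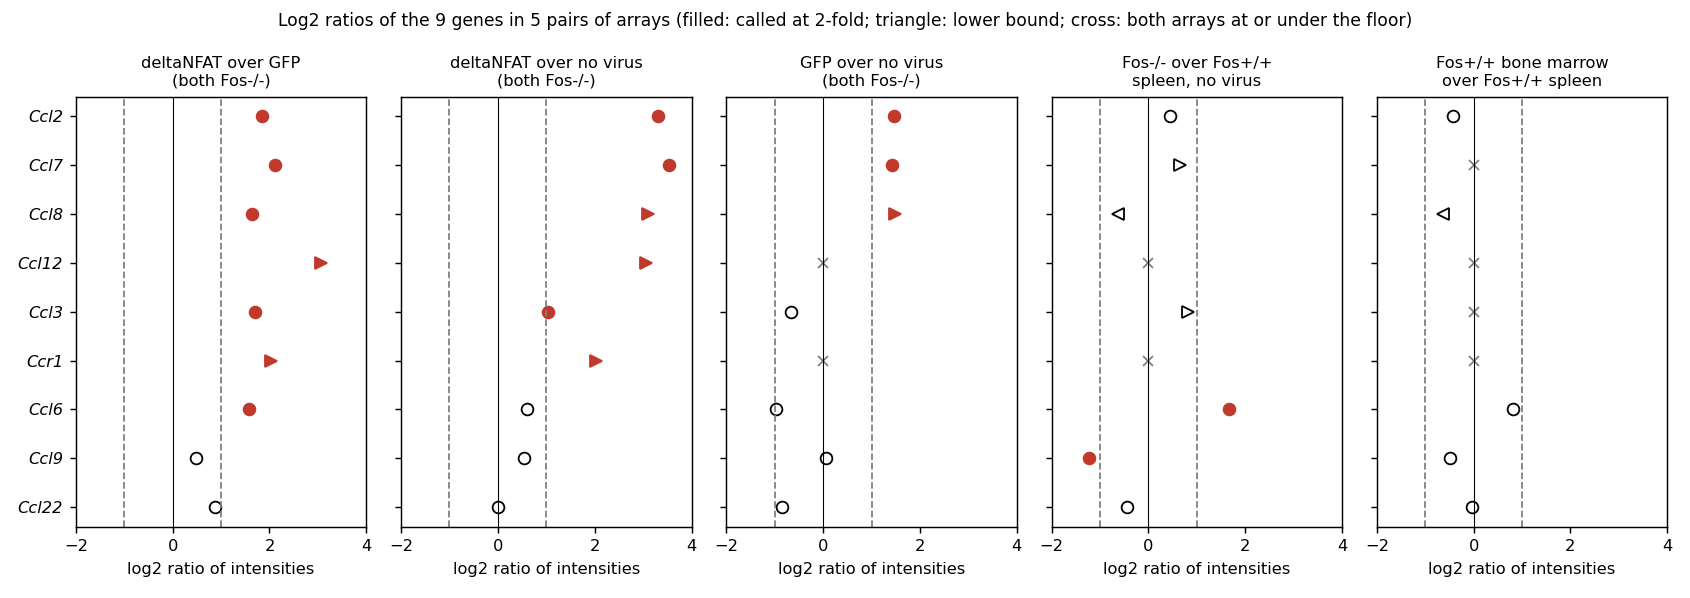
Log2 ratio of the 9 genes (rows) in 5 pairs of arrays (panels), the array named first over the other, with dashed lines at 2-fold. Filled red symbols are calls, triangles are lower bounds and crosses mark genes at or under the floor in both arrays. With deltaNFAT over GFP 7 genes are filled, with Fos-/- over Fos+/+ spleen Ccl6 (1.67) and Ccl9 (-1.23) lie on opposite sides.

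Without virus the calls were Ccl6 and Ccl9. Between Fos-/- and Fos+/+ spleen 1 was higher (Ccl6) and 1 lower (Ccl9) of 4 bright enough, beside 6.40% and 6.52% of 4999 genes, a list too short to be read against a share. Ccl2 at 1.37-fold and Ccl22 at a ratio of 0.74 were the other 2. The Ccl6 call was lost at the floor of 65.1 and at the noise floor, and that of Ccl9 was kept. Fos+/+ bone marrow over Fos+/+ spleen gave 0 calls in either direction among 4 bright genes, beside 13.1% higher and 7.18% lower of 5289 genes. Ccl6 was 1.75-fold and Ccl9 0.72-fold in that pair. Over all 5 arrays, Ccl2, Ccl3 and Ccl7 read higher in each of the 3 Fos-/- arrays than in both Fos+/+ arrays, beside 10.0% of 5564 genes, and Ccl9 and Ccl22 lower, beside 15.1%. Ccl3 met this by little, at 22.0 with GFP against Fos+/+ arrays under the floor, and was bright enough through the deltaNFAT array alone. The readings that chose the genes enter this grouping too, so nothing is read from these counts. The other 4 genes overlapped or tied at the floor, and 2 of the 3 Fos-/- arrays carry a virus, so genotype and virus cannot be told apart in this grouping.

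On mouse chromosome 11 lie 7 of the 9 genes, in 2 clusters whose order was read from RefSeq (assembly GRCm38.p6, used for names and neighbours). The first runs Ccl2, Ccl7, Ccl11, Ccl12, Ccl8 and Ccl1, the second Ccl5, Ccl9, Ccl6, Ccl3 and Ccl4, with 25 protein-coding genes between them. Ccl1, Ccl4, Ccl5 and Ccl11 are named here for their position after their values were seen. Ccl11, the eotaxin gene lying between Ccl7 and Ccl12, read -5.80 with deltaNFAT, -2.80 with GFP and -11.4 without virus, under the floor in all 5 arrays. Ccl1, next to Ccl8, read 19.7 with deltaNFAT and 3.80 with GFP, both under the floor, against 62.8 without virus. In the second cluster Ccl5 was under the floor in all 5 arrays, and Ccl4, the partner of Ccl3, read 28.4 with deltaNFAT and was under the floor elsewhere. With deltaNFAT over GFP, Ccl1, Ccl4, Ccl5 and Ccl11 were all too dim to be called, so they are not read as unchanged. Of the genes between the clusters 8 were on the array, and 1 of them, the DNA ligase gene Lig3, was called higher with deltaNFAT over GFP (142 against 70.0). Over no virus 1 was called higher with deltaNFAT, the Schlafen gene Slfn2 (471 against 194).

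**Figure D3:**
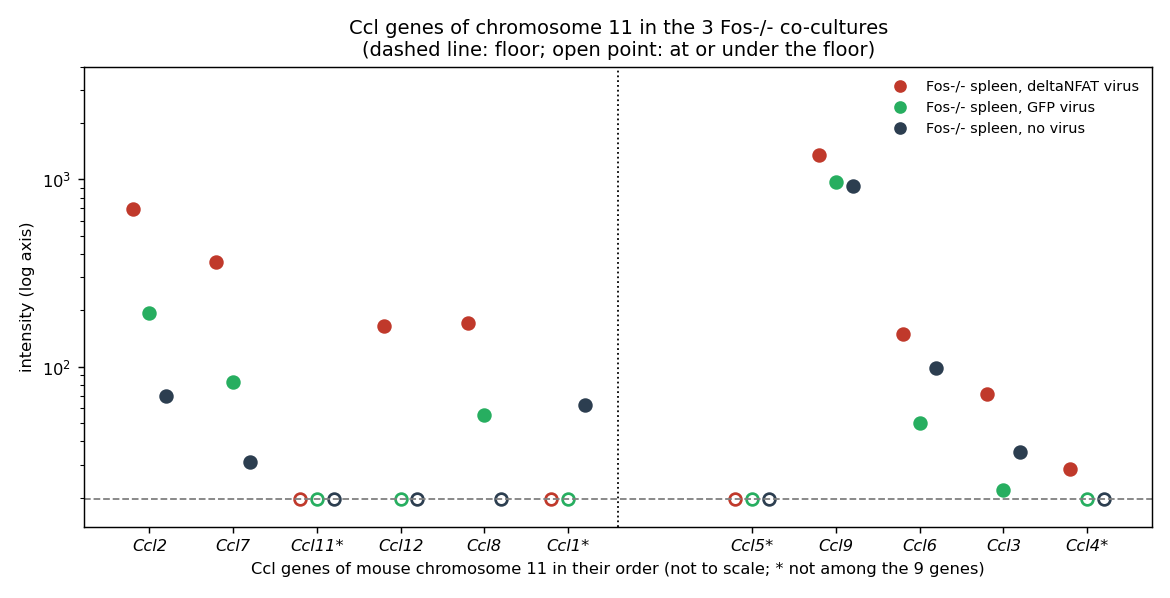
Intensity (log axis) of the 11 Ccl genes of chromosome 11, in their order along the chromosome and not to scale, in the 3 Fos-/- co-cultures. Open points on the dashed line are at or under the floor of 19.8, asterisks mark genes outside the 9, and the dotted line separates the clusters. Points are to be compared within a gene. Ccl2, Ccl7, Ccl12 and Ccl8 stand highest with deltaNFAT, and so do Ccl9, Ccl6, Ccl3 and Ccl4 of the second cluster. Ccl1 stands highest without virus, while Ccl11 and Ccl5 stay at the floor.

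Upstream sequences from RefSeq (GRCm38.p6) were found for 7 of the 9 genes, all but Ccl2 and Ccl7. Those of Ccl12 and Ccl8, higher together with deltaNFAT, and of the adjacent Ccl6 and Ccl9, which differed with genotype, are printed as the 250 bases before the gene start, 5′ to 3′. Capitals mark matches on either strand to the NFAT core GGAAA, a loose form of the AP-1 motif and the NF-kB consensus motif. The loose AP-1 form was TGANTCA, in which N is any base.
Ccl12, chr11:82101595-82101844 (+ strand): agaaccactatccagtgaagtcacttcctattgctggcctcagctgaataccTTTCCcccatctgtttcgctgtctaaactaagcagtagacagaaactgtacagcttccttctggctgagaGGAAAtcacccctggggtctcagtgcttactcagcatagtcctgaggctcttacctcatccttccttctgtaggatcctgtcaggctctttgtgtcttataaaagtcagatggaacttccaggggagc
Ccl8, chr11:82114935-82115184 (+ strand): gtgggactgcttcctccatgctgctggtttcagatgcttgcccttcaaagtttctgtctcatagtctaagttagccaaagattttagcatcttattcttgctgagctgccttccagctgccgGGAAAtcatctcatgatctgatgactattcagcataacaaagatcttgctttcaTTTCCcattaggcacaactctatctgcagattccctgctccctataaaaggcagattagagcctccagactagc
Ccl6, chr11:83593088-83593337 (- strand): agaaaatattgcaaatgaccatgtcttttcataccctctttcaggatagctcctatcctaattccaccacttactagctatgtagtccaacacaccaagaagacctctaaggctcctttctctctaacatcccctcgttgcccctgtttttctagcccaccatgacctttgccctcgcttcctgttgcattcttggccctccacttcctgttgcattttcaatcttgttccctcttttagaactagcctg
Ccl9, chr11:83578637-83578886 (- strand): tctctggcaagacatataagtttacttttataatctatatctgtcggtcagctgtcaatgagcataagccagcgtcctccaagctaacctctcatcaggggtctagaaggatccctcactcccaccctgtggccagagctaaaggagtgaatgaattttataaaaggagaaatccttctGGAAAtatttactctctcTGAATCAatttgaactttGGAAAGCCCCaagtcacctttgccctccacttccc
Ccl12 and Ccl8 each held 2 NFAT cores, one of them starting 128 bases before the gene start in both, and neither held the AP-1 or NF-kB motif. Ccl6 held none of the 3 motifs in this window. Ccl9 held 2 NFAT cores, 1 match to the loose AP-1 form (TGAATCA) starting 53 bases before the start and 1 NF-kB match, which overlaps an NFAT core. Among 32851 promoter windows of this length in the RefSeq table, 55.6% held the NFAT core at least once and 21.4% at least 2 times, 6.75% the AP-1 motif and 7.25% the NF-kB motif. Ccl3 held 2 NFAT cores, Ccr1 1 NFAT core and 1 NF-kB match, and Ccl22 none of the 3 motifs. Aligned from the gene start without gaps, the Ccl12 and Ccl8 windows were identical at 36.0% of positions, and the other 20 pairs of the 7 windows at 20.0 to 31.2%. A match of letters is no evidence that a factor binds there.

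The rest of the chemokine system was described through lists chosen with earlier results of these data known. Of 6 other CC ligands on the array 3 were above the floor in at least 1 array, and 0 were called either way with deltaNFAT over GFP. Of 10 such CC and atypical receptors 0 were higher and 1 lower. The lower one was Ackr4, a scavenging receptor, which read 75.2 with deltaNFAT and 155 with GFP, and 204 without virus, against 231 in Fos+/+ bone marrow and 108 in Fos+/+ spleen. Ccr2, the receptor of Ccl2, read 34.8 with deltaNFAT, was under the floor in the other 4 arrays and was too dim to be called. Of 4 receptors of the other chemokine classes 1 was higher, Xcr1 at 52.9 with deltaNFAT against 10.8 with GFP. Another was lower, Cxcr3 at 34.8 with deltaNFAT against 92.3 with GFP, although without virus it was under the floor. Both are named because these counts are small, after their values were seen.

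Of 8 CXC, XC and CX3C ligands above the floor 0 were called in either direction with deltaNFAT over GFP. Cxcl12, which retains haematopoietic cells in the marrow, read 1598 with deltaNFAT and 1806 with GFP, and Cx3cl1, a membrane-bound chemokine, 440.0 and 516. Cxcl13, an attractant of B cells, read 917 with deltaNFAT, 971 with GFP and 371 without virus, against 1155 in Fos+/+ bone marrow and 230.3 in Fos+/+ spleen. Both virus arrays were thus over 2-fold above the array without virus for Cxcl13 (2.47-fold and 2.61-fold), and the viruses differed by 0.94-fold. The genes of receptor signalling gave 0 calls among 10, those of inflammatory inducers and NF-kB 0 among 13, and those of monocyte growth factors and receptors 0 among 7, in either direction. The largest ratio among the inducers was that of Il1rn, the interleukin receptor antagonist, at 1.75-fold (387 with deltaNFAT, 221 with GFP). Il1b, Il6 and Tnf were under the floor in all 5 arrays, and Il1a read 29.2 with GFP, 25.4 in Fos+/+ bone marrow and under the floor elsewhere. Of the 13, Il1a and Nfkbie were too dim with deltaNFAT and GFP to be called. The part of such cytokines in the chemokine values was not tested.

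**Figure D4:**
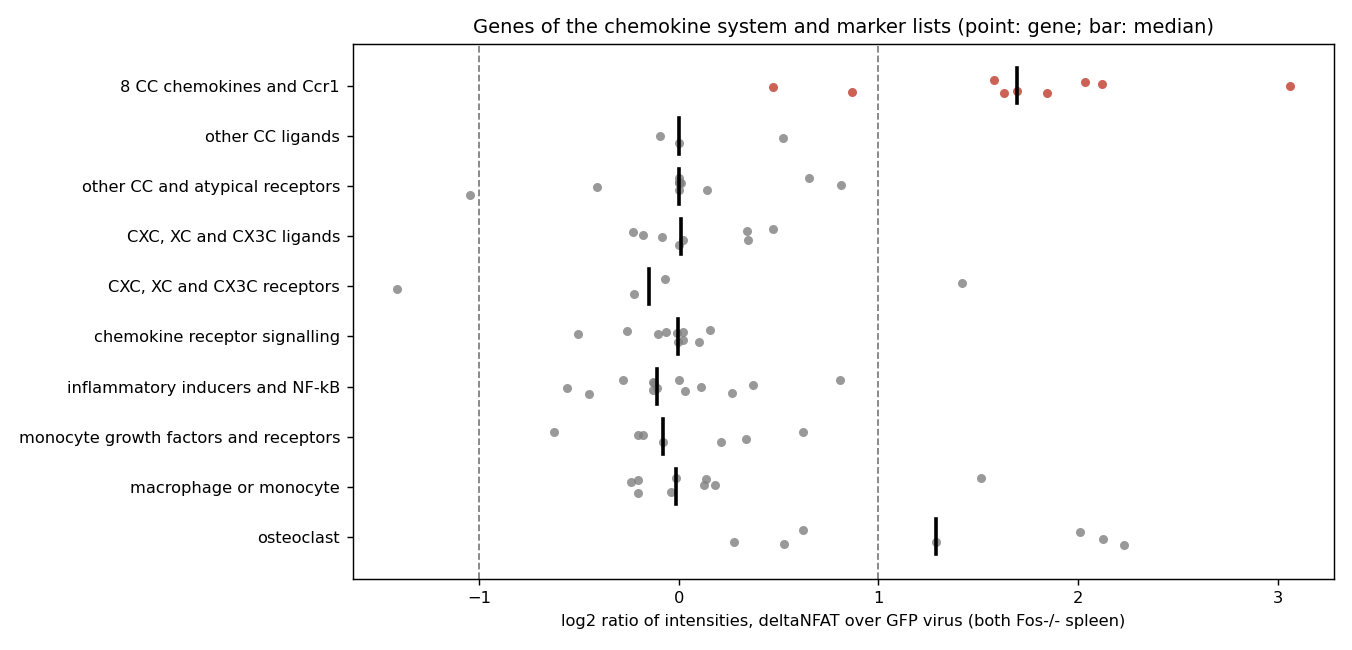
Log2 ratio of deltaNFAT over GFP (x axis) for every gene above the floor in at least 1 array, in the 8 CC chemokines with Ccr1 (red), 7 lists of the chemokine system and 2 marker lists (grey), with each list's median as a bar and dashed lines at 2-fold. The 9 genes, chosen on this contrast, have a median of 1.69, and the osteoclast markers one of at least 1.29, the lower bound of Car2. The medians of the other lists lie between -0.15 and 0.01. Genes at or under the floor with both viruses sit at 0.

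Markers of several cell types were read beside the chemokines. The 9 macrophage or monocyte markers summed to 8504 with deltaNFAT and 8694 with GFP, 7732 without virus, 7682 in Fos+/+ bone marrow and 6370 in Fos+/+ spleen. Of these markers 1 was called higher with deltaNFAT over GFP, the integrin chain Itgam at 56.6 against 14.2, and 0 lower. Against no virus 3 were higher with deltaNFAT, among them the mannose receptor Mrc1 (1140 against 214) and the scavenger receptor Msr1 (335 against 66.0), and 2 with GFP. The sum of 9 stromal fibroblast markers was 11684 with deltaNFAT and 12907 with GFP, and that of 8 neutrophil markers 4669 and 6878. Osteoclast markers summed to 3294 with deltaNFAT and 1596 with GFP, with 4 of 7 higher, 1681 without virus, 9960.5 in Fos+/+ bone marrow and 11953 in Fos+/+ spleen. Among these 4, the protease gene Ctsk was 4.69-fold higher with deltaNFAT than with GFP, Calcr at least 4.36-fold and Acp5 4.03-fold. The dendritic cell sum was 476 with deltaNFAT and 219.8 with GFP, carried by the invariant chain Cd74 (332 against 92.9), with H2-Aa and H2-Ab1 under the floor in all 5 arrays. The T or NK cell markers summed to 132 with deltaNFAT and 139.6 with GFP, 335 without virus, 152 in Fos+/+ bone marrow and 61.3 in Fos+/+ spleen. Of these, Cd3d, Cd3e, Cd3g and Cd8a were under the floor throughout, Cd4 read 91.0, 134, 167, 129 and 25.0 in the same order of arrays, and Zap70 read 159 without virus. The B cell sum was 379 with deltaNFAT and 351 with GFP, and that of mast cell or eosinophil markers 155 and 116. The part of cell numbers in the chemokine values was not tested.

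Similarity of pattern was measured as the root mean square difference of log2 intensities, each gene centred on its own mean over the 5 arrays, among 4394 other genes reaching 79.2 in some array. Among the 9 genes, Ccl2 and Ccl7 were closest to each other, at 0.17. The nearest genes to Ccl2 outside the 9 were the inhibitory Fc receptor Fcgr2b (0.27), the interferon-induced Ifit1 (0.34), Gm9706 (0.35), the interferon-inducible GTPase gene Iigp1 (0.42) and the ubiquitin-like modifier gene Isg15 (0.47), and these 5 alone lay within 0.5. Fcgr2b read 203 with deltaNFAT, 85.3 with GFP and 28.0 without virus, with both Fos+/+ arrays under the floor. Ifit1, Gm9706, Iigp1 and Isg15 were under the floor in every array without virus, so their nearness to Ccl2 rests on the virus arrays. Ccr1 was nearest to Ldb3 (0.05), to Cd74 (0.18), to the apolipoprotein gene Apod (0.29), to the stromelysin gene Mmp3 (0.35) and to Ifit3 (0.39). Ccr1 was above the floor with deltaNFAT alone. Ldb3 read 82.5 with deltaNFAT and near or under the floor elsewhere, so its nearness to Ccr1 rests on that array.

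For Ccl9 the nearest genes were the membrane-actin linker Ezr (0.08), the proton pump subunits Atp6v1c1 (0.11) and Atp6v1e1 (0.13), the surface protein gene Cd276 (0.13) and Pter (0.14). Atp6v1c1 read 354 with deltaNFAT, 309 with GFP and 287 without virus, against 502 in Fos+/+ bone marrow and 685 in Fos+/+ spleen. Since Ccl9 varied little, 1749 genes lay within 0.5 of it, and the first places are less telling than for Ccl2. Ccl22, of the 9 genes, was at 0.33 from Ccl9. Ccl6 was nearest to Ttc1 (0.33), Rnf2 (0.37), the tubulin gene Tubb4a (0.38), Baz2a (0.38) and the Wnt inhibitor family gene Dkk3 (0.39), and to Ccl3 among the 9 (0.31), while Ccl9 lay at 1.10 from it. With 5 arrays, of which several values sit at the floor, such nearness describes these arrays only.

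**Figure D5:**
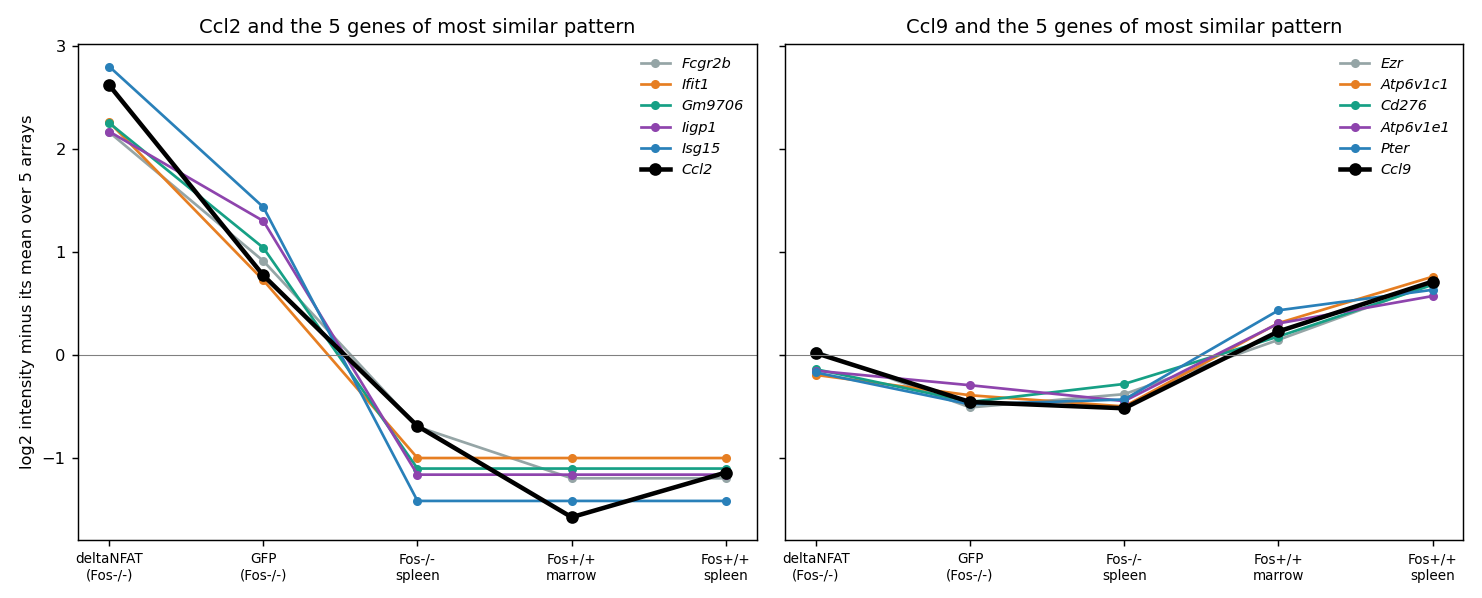
Log2 intensity minus its mean over the 5 arrays (y axis) for Ccl2 and Ccl9 (thick black lines) with the 5 genes of most similar pattern each (thin lines), values under the floor set to it. Lines join the arrays of 1 gene and imply no order in time. The Ccl2 group is highest with deltaNFAT, then GFP, and the Ccl9 group is highest in Fos+/+ spleen.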

How the data were processed

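Total RNA of 5 whole co-cultures was hybridised to 1-colour arrays of 12488 probe sets, 1 array per group, and groups were taken from the sample titles. The authors deposited 1 intensity per probe set on a linear scale. Trimmed means were nearly equal and some values lay below 0, by steps and with software not given in the sources used here. Each array was rescaled to an equal mean without the lowest and highest 2%, the 40th percentile (19.8) was set as a floor, and ratios were taken as log2. Gene symbols came from the platform annotation, and the brightest probe set stood for a gene. A call needed 2-fold and a brighter array of 39.6. No test was run, since no group has a replicate, and the number of arrays limits the precision. The genes and lists were chosen with earlier results of these data known. At most 4 members of a list were named per comparison, by size of ratio, with a brighter array of 79.2 or more. Ccr1l1, Ccr2, Xcr1, Cxcr3, Cxcl1, Itgam, Lig3, Slfn2, Il1a, Il1b, Il6, Tnf, Nfkbie and the neighbouring Ccl genes were named after their values were seen. The procedure was tested on simulated data. Alternatives were 3 other floors, quantile normalization, the deposited values without rescaling, the mean of probe sets and unsuffixed probe sets only. Python 3.11.15, numpy 2.4.6, pandas 2.3.3 and matplotlib 3.10.9 were used.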

Additional observations from a re-analysis of the deposited data

How the results depend on the processing

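Of 18 calls over the 9 genes and 5 comparisons, 5 were kept under all 7 alternatives, 0 changed sign, and those lost were lost at a higher floor, the Ccl3 call over no virus under quantile normalization as well. The 5 were Ccl2 and Ccl7 with deltaNFAT over GFP and over no virus, and Ccl9 in Fos-/- over Fos+/+ spleen. The mean of probe sets and unsuffixed probe sets could not change a call here, since each of the 9 genes has 1 unsuffixed probe set. The deposited values were almost equal to the rescaled ones. Only the other floors and quantile normalization therefore put these calls to a trial. At the noise floor of 96.6, where a call needs 193 in the brighter array, few of the 9 genes can be called. The genes higher there numbered 2 with deltaNFAT over GFP, 2 over no virus, 0 with GFP over no virus and 0 in Fos-/- over Fos+/+ spleen. The shares of all bright genes were 1.03%, 7.88%, 7.73% and 3.5% in the same order. At the floor of 65.1 the genes higher numbered 1 with GFP over no virus and 0 in Fos-/- over Fos+/+ spleen, beside 8.07% and 4.42%. At the floor of 7.40 (the 30th percentile), 4 were higher and 2 lower in Fos-/- over Fos+/+ spleen, beside 8.16% and 8.32%. In bone marrow over spleen 1 was lower, beside 9.05%. Over all genes, deltaNFAT over GFP gave 374 higher and 258 lower at the floor of 7.40, 37 and 21 at 65.1 and 20 and 10 at 96.6. The counts for deltaNFAT over no virus (569 higher, 345 lower) became 858 and 503 at 7.40, 243 and 129 at 65.1, and 165 and 77 at 96.6. Those for GFP over no virus (529 and 358) became 775 and 562, 235 and 104, and 162 and 52. Those for Fos-/- over Fos+/+ spleen (320 and 326) became 502 and 512, 125 and 139, and 71 and 98. Those for bone marrow over spleen (694 and 380) became 1001 and 577, 264 and 146, and 160 and 89, and 523 and 497 under quantile normalization. A higher floor leaves fewer genes bright enough. No paired analysis was possible because each group has 1 array and the labels carry no replicate numbers. Most of these 9 genes lie near the floor, and probe sets of related chemokines may read each other's transcripts, which was not tested.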
